A study of Homo sapiens with 18 samples.

Results

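TNF superfamily genes encode ligands, most of them trimers held in the cell membrane, and the receptors that bind them. The set described here is 9 genes, namely the ligands LTB, TNFSF10 and TNFSF15, the receptors TNFRSF1A, TNFRSF10A, TNFRSF12A and TNFRSF21, and the decoy receptors TNFRSF11B and TNFRSF6B. They were named by symbol and matched to Ensembl identifiers, all 9 of them, among 61806 identifiers in the deposited table. They form a chosen part of the superfamily, and a further 15 ligands and 23 receptors were read beside them.

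The study sequenced poly(A)-enriched RNA from LoVo and DLD-1, 2 human colorectal cancer cell lines. Both lines were grown in DMEM with fetal bovine serum. In each line, cells labelled EV (read here as the empty-vector control), cells overexpressing LIN28B, and LIN28B cells treated with alpelisib at 5 µM gave 3 libraries each, 18 in 6 groups. LIN28B binds RNA and keeps let-7 microRNAs from maturing, and alpelisib inhibits the alpha isoform of phosphatidylinositol 3-kinase. No library combined EV with alpelisib, so alpelisib was compared only within LIN28B cells. Not given in the sources used here were the vector, whether a line was 1 clone, the length of treatment and the vehicle.

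Receptors with a cytoplasmic death domain, such as TNFRSF1A, TNFRSF10A and TNFRSF21, can recruit adaptors that lead to caspase activation, and many receptors of the family recruit TRAF proteins that lead to NF-kappaB. Decoy receptors bind the ligands without passing a signal. Epithelial tumour cells are known to express TRAIL (TNFSF10) receptors and the TNF receptor TNFRSF1A, while lymphotoxin beta (LTB) is best known from lymphocytes, where it joins lymphotoxin alpha in a membrane complex that binds LTBR.

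The values were TPM, in which reads are scaled by gene length and library total, so levels of different genes can be set side by side. LIN28B measured 1.17 to 4.91 TPM in the EV libraries, 408 to 706 TPM in the LIN28B libraries and 139 to 160 TPM with alpelisib. Treated and untreated LIN28B cells thus also differed in LIN28B level. An effect of alpelisib cannot be told apart from one of that difference. Of 12 colon epithelial markers, EPCAM measured 456 to 729 TPM and KRT8 at least 2383 TPM in all libraries, while CDX1 did not exceed 1.05 TPM. Several were lowest in LoVo EV, with group means of 0.685 TPM there and 124 TPM in DLD-1 EV for KRT20, and of 14.0 and 196 TPM for CDH17. The leukocyte marker list, 12 genes, summed to 11.5 to 20.5 TPM in LoVo EV and 4.47 to 11.0 TPM elsewhere. In LoVo EV CD68 averaged 10.9 TPM, CD3D and MS4A1 were at 0 in all libraries, and PTPRC did not exceed 0.122 TPM. Fibroblast markers, 7 genes, summed to 9.56 to 15.0 TPM in LoVo EV and 3.24 to 8.44 TPM elsewhere, with COL1A2 at 0 throughout. Endothelial markers, 5 genes, summed to at most 1.57 TPM. The libraries labelled LoVo LIN28B stood apart from LoVo EV, with Pearson's r across genes of 0.8904 to 0.9176, against 0.9636 to 0.968 with DLD-1 LIN28B. Their line could not be checked, so "LoVo-labelled" is used for them, and under that label a difference between EV and LIN28B cannot be told apart from a difference between lines. Mitochondrially encoded genes held 12.0% to 19.8% of TPM in LoVo EV and 5.90% to 13.8% elsewhere. Sequencing depth is unknown.

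Changes were tested on the log2(TPM + 1) scale with limma over 18537 genes, with a threshold of 0.05 on the adjusted p for a call. Intervals are at 95%. Of the 9 members, 8 reached 1 TPM in at least 3 libraries. TNFRSF6B did so only through LoVo EV and is given by its values, with no test, and TNFRSF11B did not pass, which leaves 7 members. In the same way TNF, FASLG, CD40, NGFR and RIPK3 needed LoVo EV to pass and are left out of the counts below, a choice made after their values were seen. The shares of all genes below still include 1734 genes that needed 1 group to pass. Without those the shares called were 2.75% in DLD-1 and 58.7% under the LoVo label for LIN28B against EV. For alpelisib they were 33.6% and 42.1%, and for LoVo EV against DLD-1 EV 57.4%. In DLD-1, LIN28B against EV called 0 of 7 members by limma (0 also at an unadjusted p under 0.05), where 2.53% of all genes were called. An unadjusted p under 0.05 was found there for 2560 of the 16803 genes that did not need 1 group to pass. Under the LoVo label the same contrast called 5 of 7, where 56.8% of all genes were called, 40.3% higher and 16.5% lower. Alpelisib called 3 of 7 in DLD-1, all lower, where 31% of all genes were called, 9.05% higher and 21.9% lower. It called 3 of 7 in the LoVo-labelled cells, 1 higher and 2 lower, where 39.7% were called, 15.1% higher and 24.6% lower. The member counts under alpelisib stood near the share of all genes.

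**Figure D1:**
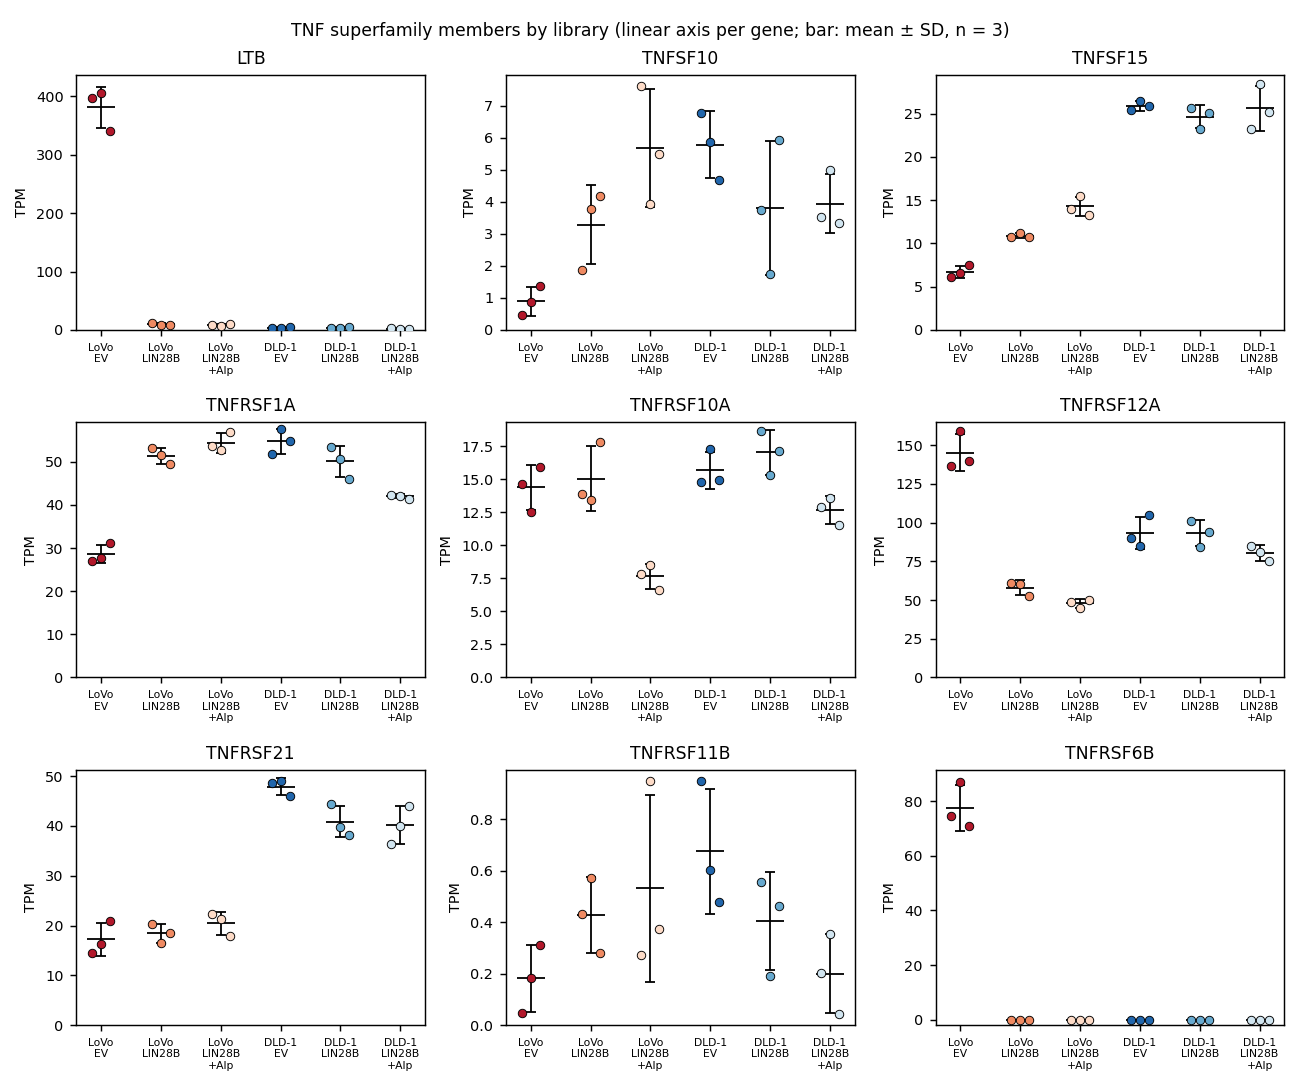
TPM of the 9 members in each library, by group, with a linear axis for each gene; points are libraries and bars are the mean ± SD (n = 3). LTB and TNFRSF6B are high in LoVo EV alone, TNFSF15 and TNFRSF21 are higher in DLD-1 than under the LoVo label, and TNFRSF10A is lowest in LoVo-labelled LIN28B cells with alpelisib.

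LTB, the membrane anchor of the lymphotoxin complex (ENSG00000227507; GRCh38 chr6:31580525-31582522, minus strand), was the most abundant member in LoVo EV. It measured 396, 406 and 340 TPM there, 12.0, 9.22 and 8.27 TPM in LoVo-labelled LIN28B, and 8.69, 6.57 and 9.69 TPM with alpelisib. In DLD-1 it measured 3.18, 2.82 and 4.38 TPM in EV, 3.66, 3.20 and 4.59 TPM in LIN28B, and 2.81, 1.95 and 1.89 TPM with alpelisib. Each LoVo EV library lay far above all 15 others, and the LIN28B and alpelisib groups under the LoVo label overlapped. LoVo-labelled LIN28B was lower than LoVo EV by a ratio of 38.7 in mean TPM (381 ± 35.6 against 9.84 ± 1.95 TPM, SD, n = 3; log2 difference -5.15, SE 0.18, adjusted p = 1.96e-12). In bulk RNA, fewer cells that make a transcript and less of it per cell cannot be told apart. CD68 and COL1A1, the leukocyte and fibroblast markers with the highest levels in LoVo EV, averaged 10.9 and 11.8 TPM there. In LoVo-labelled LIN28B they averaged 4.60 and 4.28 TPM. LCP1 and PDGFRB of the same lists went the other way, at 0.464 and 0.439 TPM in LoVo EV against 3.13 and 1.66 TPM. CD3D and MS4A1 were at 0 where LTB was highest. The part of such cells in the LTB result was not tested. LTB remained higher in LoVo-labelled LIN28B than in DLD-1 LIN28B (3.82 ± 0.708 TPM), by 1.17 log2 (adjusted p = 0.000236), and their libraries did not overlap. That contrast called 4 of 7 members, 1 higher and 3 lower, where 14% of all genes were called, 7.96% higher and 6.02% lower. Alpelisib lowered LTB in DLD-1 by a ratio of 1.72 (log2 -0.58, SE 0.18, adjusted p = 0.0199), from 3.82 ± 0.708 to 2.22 ± 0.510 TPM, without overlap. The call did not hold without DLD-1 LIN28B replicate 3 (adjusted p = 0.0874) or without alpelisib replicate 2 or 3 (0.0687 and 0.0674). In the LoVo-labelled cells, the alpelisib difference was -0.22 (interval -0.59 to 0.16, adjusted p = 0.355).

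LTB lies next to TNF and LTA in the class III region of the major histocompatibility complex. TNF (chr6:31575567-31578336, plus strand), the founding cytokine of the family, lies 2188 bases from LTB. Its level was 3.13 ± 0.247 TPM for LoVo EV and 0.437 ± 0.257 TPM for LoVo-labelled LIN28B, and its highest library outside LoVo EV held 0.752 TPM. LTA, the partner of LTB in the lymphotoxin heterotrimer, stayed at or below 0.420 TPM in all 18 libraries and was not tested. LTBR, the receptor of that heterotrimer, measured 82.0 to 122 TPM as group means and was not called for LIN28B against EV under either label (adjusted p = 0.853 under the LoVo label, 0.185 in DLD-1).

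The promoter of LTB is shown because LTB had the widest range of levels among the members detected in all groups. The letters come from RefSeq on build GRCh38.p14. The first stretch holds 153 bases at chr6:31582523-31582675, minus strand, which lie upstream of all annotated exons of the gene, with a FOXO match (TGTTTAC on either strand) in capitals, 123 to 117 bases before the start. The second holds 30 bases around a kappaB consensus match, in capitals, 86 to 77 bases before the start at chr6:31582492-31582521, in a stretch that another annotated transcript includes as exon.
LTB upstream: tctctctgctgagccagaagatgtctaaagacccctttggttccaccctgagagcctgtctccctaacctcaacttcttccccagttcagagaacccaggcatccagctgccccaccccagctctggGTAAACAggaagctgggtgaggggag
LTB kappaB window: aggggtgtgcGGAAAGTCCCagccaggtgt
Among 35116 RefSeq promoters searched on both strands over 250 bases before the start, 2.98% held the FOXO letters and 5.21% the kappaB consensus. The 2 matches in LTB do not overlap. They describe letters, and binding was not measured.

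TNFSF10, the death ligand TRAIL (ENSG00000121858; chr3:172505508-172523507, minus strand), was low in all groups. LoVo EV held 0.465, 0.856 and 1.37 TPM, LoVo-labelled LIN28B 1.88, 3.77 and 4.19 TPM, and LIN28B with alpelisib 7.61, 3.94 and 5.50 TPM. In DLD-1, EV libraries held 6.77, 5.86 and 4.69 TPM, LIN28B libraries 3.75, 1.76 and 5.94 TPM, and alpelisib-treated ones 3.51, 4.99 and 3.33 TPM. Apart from LoVo EV, which lay below every other library, each group overlapped its neighbour in the order of means. LoVo-labelled LIN28B was higher than LoVo EV by 1.16 log2 (SE 0.31, adjusted p = 0.00462), at 3.28 ± 1.23 against 0.896 ± 0.452 TPM. Without LoVo EV replicates 1 and 2, the pair with the highest mitochondrial shares, the difference was 0.81 with an adjusted p of 0.169. LIN28B against EV in DLD-1 gave -0.58 (interval -1.24 to 0.08, adjusted p = 0.441). Alpelisib gave 0.12 in DLD-1 (interval -0.54 to 0.78, adjusted p = 0.815) and 0.65 under the LoVo label (interval -0.01 to 1.31, adjusted p = 0.111). The stretch before the RefSeq start listed for TNFSF10 held a TATA match (TATAAA, in 10.72% of promoters) 31 to 26 bases before that start. It is shown in capitals within 26 bases at chr3:172523446-172523471, minus strand. This window lies inside the annotated span of the gene, whose first base is chr3:172523507. The RefSeq start used is thus internal to the gene.
TNFSF10 TATA window: cctcactgacTATAAAagaatagaga
A TATA box usually stands at about that distance before a start. Whether this internal start or the TATA match is used was not measured.

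TNFSF15, also called TL1A, the ligand of the death domain receptor TNFRSF25 (ENSG00000181634; chr9:114784635-114806126, minus strand), was separated into 4 levels. LoVo EV held 6.13, 6.60 and 7.48 TPM, LoVo-labelled LIN28B 10.7, 11.2 and 10.8 TPM, and LIN28B with alpelisib 14.0, 15.5 and 13.3 TPM. All 9 DLD-1 libraries lay between 23.2 and 28.4 TPM. No library of one level overlapped another, and the 3 DLD-1 groups overlapped each other. TNFSF15 was 1.62 times as high in LIN28B as in EV under the LoVo label (log2 0.63, SE 0.10, adjusted p = 3.22e-05). Alpelisib raised it in the LoVo-labelled cells from 10.9 ± 0.278 to 14.3 ± 1.12 TPM (log2 0.36, SE 0.10, adjusted p = 0.00726). In DLD-1 the alpelisib difference was 0.05 (interval -0.15 to 0.25, adjusted p = 0.743) and the LIN28B difference -0.07 (interval -0.27 to 0.13, adjusted p = 0.833). LoVo-labelled LIN28B held 10.9 ± 0.278 against 24.6 ± 1.31 TPM in DLD-1 LIN28B (log2 -1.11, adjusted p = 5.2e-07). Its receptor TNFRSF25 measured 48.6 ± 10.9 TPM in LoVo-labelled LIN28B and 73.7 ± 11.1 TPM with alpelisib (log2 0.61, adjusted p = 0.0236), so ligand and receptor were both called higher there. TNFRSF25 was not called for alpelisib in DLD-1 (28.5 ± 1.26 to 39.0 ± 6.40 TPM, log2 0.43, adjusted p = 0.117). Of its exonic bases, 8.9% are shared with genes on the opposite strand and 2.4% with another gene on its own strand.

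The stretch before the RefSeq start listed for TNFSF15 is shown because this ligand was called in both LoVo-labelled contrasts. It is 250 bases at chr9:114792531-114792780, minus strand, RefSeq on GRCh38.p14, which lies inside the annotated span of the gene and outside its exons. That start is internal to the gene. The bases before the annotated first base of the gene, chr9:114806126, were not searched. An AP-1 match (TGANTCA) stands in capitals, 120 to 114 bases before the start, and 6.57% of promoters held such a match.
TNFSF15 upstream: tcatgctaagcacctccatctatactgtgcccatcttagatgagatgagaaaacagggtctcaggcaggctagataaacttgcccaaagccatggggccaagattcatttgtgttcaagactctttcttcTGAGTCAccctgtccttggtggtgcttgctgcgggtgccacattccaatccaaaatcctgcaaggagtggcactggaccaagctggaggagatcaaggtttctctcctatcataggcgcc
No FOXO, kappaB or TATA match was found in that window. The 250 bases before the RefSeq start of TNFRSF1A and of TNFRSF21 held none of the 4 motifs. TNFRSF10A, TNFRSF11B and TNFRSF12A were not searched. Only the first RefSeq start listed for a gene was used, and LTB has 2.

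TNFRSF1A, the death domain receptor for TNF found on most cell types (ENSG00000067182; chr12:6328757-6342114, minus strand), was lowest in LoVo EV. It measured 27.1, 27.7 and 31.1 TPM there, 53.2, 51.5 and 49.5 TPM in LoVo-labelled LIN28B, and 53.7, 52.6 and 57.0 TPM with alpelisib. The DLD-1 libraries read 51.8, 57.6 and 54.7 TPM in EV, 53.4, 50.7 and 46.1 TPM in LIN28B, and 42.4, 42.1 and 41.5 TPM with alpelisib. Except for LoVo EV and DLD-1 with alpelisib, which stood apart from the rest and from each other, the groups overlapped their neighbours in level. The rise of LoVo-labelled LIN28B over LoVo EV was 1.79-fold (log2 0.82, SE 0.08, adjusted p = 1.62e-07). TNFRSF1A did not separate LoVo-labelled LIN28B from DLD-1 LIN28B (log2 0.04, interval -0.12 to 0.20, adjusted p = 0.812). In DLD-1, alpelisib lowered it from 50.1 ± 3.69 to 42.0 ± 0.478 TPM (log2 -0.25, SE 0.08, adjusted p = 0.0227). That call was lost when DLD-1 LIN28B replicate 1 or 2 (adjusted p = 0.104 and 0.0647) or any alpelisib replicate (0.0536 to 0.0578) was left out. Against DLD-1 EV, LIN28B with alpelisib was lower by 0.37 log2 (adjusted p = 0.00189), the 1 of 7 members called in that contrast, where 29.9% of all genes were called, 9.71% higher and 20.2% lower. The alpelisib difference under the LoVo label was 0.08 (interval -0.08 to 0.24, adjusted p = 0.436). The 2 alpelisib effects differed by 0.33 (unadjusted p = 0.00808, adjusted p = 0.191), which did not pass the threshold.

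TNFRSF10A, the TRAIL receptor also called DR4 (ENSG00000104689; chr8:23190452-23225126, minus strand), was lower with alpelisib under both labels. The LoVo-labelled libraries read 13.9, 13.4 and 17.9 TPM untreated and 7.85, 8.49 and 6.60 TPM treated. In DLD-1 the untreated LIN28B libraries read 18.7, 15.3 and 17.2 TPM and the treated ones 12.9, 13.6 and 11.5 TPM. Treated and untreated libraries did not overlap under either label. For the LoVo-labelled cells the ratio was 1.97 (log2 -0.89, SE 0.13, adjusted p = 7.43e-05), and this was called in all alternatives run, with adjusted p between 4.24e-05 and 0.00671. For DLD-1 the ratio was 1.34 (log2 -0.40, SE 0.13, adjusted p = 0.0293). The DLD-1 call was lost without LIN28B replicate 1 or 3 (adjusted p = 0.115 and 0.0706) and without alpelisib replicate 1 or 3 (0.0625 and 0.101). The difference between the 2 effects was -0.49 (unadjusted p = 0.0175, adjusted p = 0.263). LoVo EV libraries read 14.7, 12.5 and 16.0 TPM and DLD-1 EV libraries 14.8, 17.3 and 15.0 TPM, and these overlapped the untreated LIN28B libraries of the same label. LIN28B against EV gave 0.06 under the LoVo label (interval -0.22 to 0.33, adjusted p = 0.739) and 0.11 in DLD-1 (interval -0.17 to 0.39, adjusted p = 0.795). LoVo EV and DLD-1 EV did not differ beyond their spread (log2 -0.12, interval -0.40 to 0.16, adjusted p = 0.46). Of its 2951 exonic bases, 490 (16.6%) overlap exons of genes on the opposite strand, and whether the counting used strand was not given.

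The genes beside TNFRSF10A on chromosome 8 encode the other TRAIL receptors. TNFRSF10B, or DR5, the second receptor with a functional death domain, fell with alpelisib from 89.4 ± 2.59 to 41.4 ± 3.26 TPM in the LoVo-labelled cells (log2 -1.09, adjusted p = 2.38e-07) and from 79.9 ± 6.62 to 43.0 ± 1.48 TPM in DLD-1 (log2 -0.88, adjusted p = 5.37e-06). TNFRSF10D, which has a truncated death domain, fell from 24.6 ± 2.10 to 17.4 ± 3.60 TPM (log2 -0.50, adjusted p = 0.0235) and from 21.8 ± 0.554 to 11.8 ± 1.000 TPM (log2 -0.83, adjusted p = 0.00147). TNFRSF10C, a decoy anchored by a lipid, stayed at group means of at most 1.40 TPM outside LoVo EV and was not called for alpelisib. The members of this cluster are similar in sequence, and 39.3% of the exonic bases of TNFRSF10C are shared with other genes on its strand, so the split of reads among them is uncertain. Thus 3 of the 4 TRAIL receptors of the cluster were called lower with alpelisib under both labels at the deposited scale, where 21.9% of all genes were called lower in DLD-1 and 24.6% under the LoVo label. TNFRSF10A in DLD-1 was not called under median-of-ratios scaling. TNFRSF10D, and TNFRSF10B where the naming rule did not reach it, were added after their values were seen. Their ligand TNFSF10 was not called.

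TNFRSF12A, the receptor Fn14 for the ligand TNFSF12 or TWEAK (ENSG00000006327; chr16:3018445-3022383, plus strand), was the most abundant receptor of the set in every group except LoVo-labelled LIN28B with alpelisib, where TNFRSF1A was higher. The LoVo EV libraries measured 136, 159 and 140 TPM, those labelled LoVo LIN28B 61.3, 60.1 and 52.5 TPM, and those with alpelisib 48.9, 44.7 and 50.0 TPM. For DLD-1 the values were 90.3, 84.8 and 105 TPM in EV, 101, 84.1 and 94.2 TPM in LIN28B, and 85.1, 81.2 and 74.9 TPM after alpelisib. The 3 groups under the LoVo label did not overlap each other, and the 3 DLD-1 groups lay between LoVo EV and LoVo-labelled LIN28B. LoVo-labelled LIN28B was 2.51-fold lower than LoVo EV (log2 difference -1.31, SE 0.10, adjusted p = 1.37e-08) and 1.61-fold lower than DLD-1 LIN28B (-0.67, adjusted p = 0.000166). In DLD-1, LIN28B and EV means were 93.1 ± 8.53 and 93.2 ± 10.2 TPM (interval of the log2 difference -0.21 to 0.21, adjusted p = 1). Alpelisib gave -0.27 under the LoVo label (SE 0.10, adjusted p = 0.0396) and -0.21 in DLD-1 (interval -0.42 to 0.00, adjusted p = 0.123). The LoVo-labelled call was lost without LIN28B replicate 1 or 2 (adjusted p = 0.135 and 0.109) and without any alpelisib replicate (0.0518 to 0.133). TNFSF12, its ligand, held 13.5 ± 3.21 TPM for LoVo EV and 14.4 ± 1.47 TPM for LoVo-labelled LIN28B and was not called there (adjusted p = 0.527). TNFSF12 shares 29.4% of its exonic bases with a readthrough gene that joins it to TNFSF13.

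TNFRSF21, the death domain receptor DR6 (ENSG00000146072; chr6:47231532-47309905, minus strand), separated the DLD-1 libraries from those labelled LoVo. LoVo EV measured 14.4, 16.4 and 20.9 TPM, LoVo-labelled LIN28B 20.4, 16.6 and 18.5 TPM, and LIN28B with alpelisib 22.3, 21.2 and 17.9 TPM. DLD-1 cells had 48.5, 49.1 and 45.9 TPM as EV, 44.4, 39.9 and 38.3 TPM as LIN28B, and 36.5, 40.0 and 44.0 TPM with alpelisib. All 9 DLD-1 libraries lay above all 9 LoVo-labelled ones, which overlapped across their groups. DLD-1 EV was 2.78-fold higher than LoVo EV (log2 of LoVo minus DLD-1 -1.44, adjusted p = 7.86e-08). DLD-1 LIN28B was 2.21-fold higher than LoVo-labelled LIN28B (-1.10, adjusted p = 1.2e-05), so the libraries whose line could not be checked sat with LoVo EV for this gene. No LIN28B or alpelisib contrast within a label called it. In DLD-1, LIN28B gave -0.23 (interval -0.49 to 0.04, adjusted p = 0.456) although its libraries did not overlap those of EV.

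**Figure D2:**
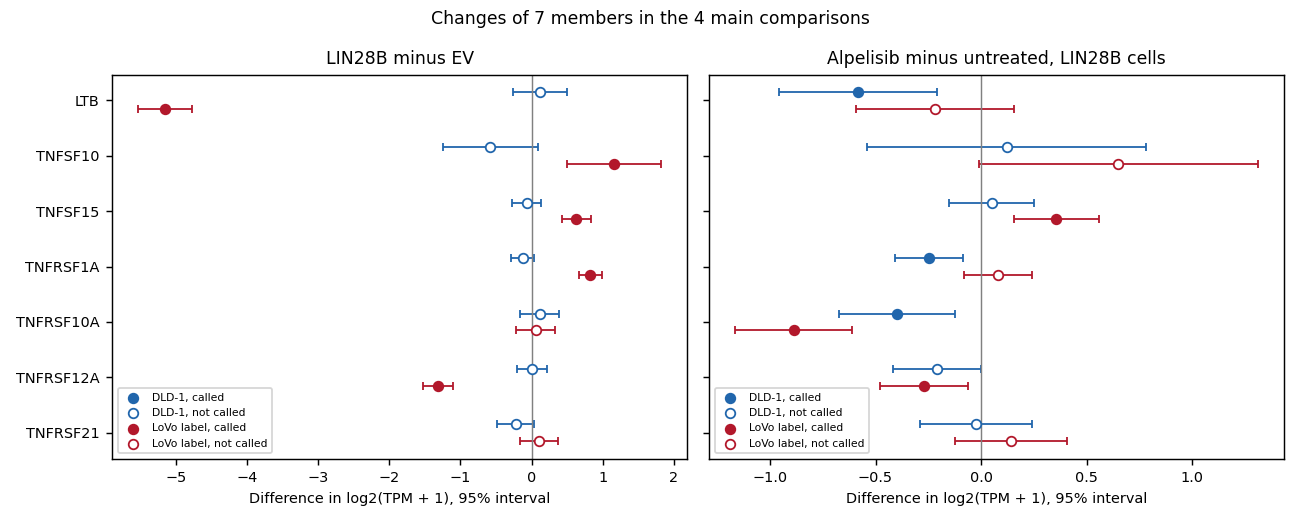
Differences in log2(TPM + 1) with their 95% intervals for the 7 members detected in all groups, for LIN28B minus EV (left) and alpelisib minus untreated LIN28B cells (right); filled points were called by limma. The DLD-1 intervals on the left all include 0, LTB under the LoVo label sits at -5.15, and TNFRSF10A is called lower with alpelisib under both labels.

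TNFRSF6B, the secreted decoy receptor DcR3, which binds FASLG, TNFSF14 and TNFSF15 (ENSG00000243509; chr20:63696651-63698684, plus strand), read 74.5, 87.3 and 71.0 TPM in LoVo EV and was listed at 0 in all other 15 libraries. No fold is given against groups listed at 0. No test is given, since the gene passed the filter through LoVo EV alone. All 10 housekeeping genes looked at were above 0 in every library. In GENCODE v29, all 1141 exonic bases of TNFRSF6B are also exons of the readthrough gene RTEL1-TNFRSF6B on the same strand, and 43 are shared with ARFRP1 on the opposite strand. A value listed at 0 may therefore depend on how shared reads were assigned, which was not given in the sources used here.

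The readthrough gene RTEL1-TNFRSF6B (ENSG00000026036) was detected throughout, at 14.6, 12.4 and 10.9 TPM in LoVo EV and between 5.75 and 10.9 TPM in the other 15 libraries. It was lower in LoVo-labelled LIN28B than in LoVo EV by 0.44 log2 (adjusted p = 0.0146). RTEL1, the helicase gene upstream (ENSG00000258366), moved the other way, from 14.6 ± 2.34 TPM in LoVo EV to 21.8 ± 4.86 TPM in LoVo-labelled LIN28B (log2 0.54, adjusted p = 0.0171). Reads of these 3 genes can be split among them, and their levels are uncertain to that extent.

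**Figure D3:**
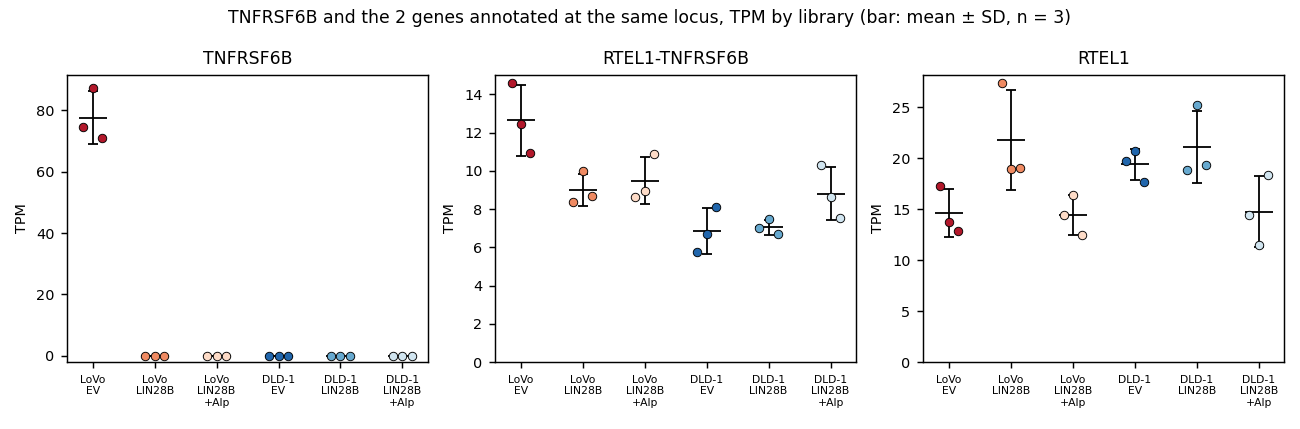
TPM of TNFRSF6B, the readthrough gene RTEL1-TNFRSF6B and RTEL1 in each library, by group, with the mean ± SD (n = 3). TNFRSF6B is at 71.0 to 87.3 TPM in LoVo EV and at 0 elsewhere, while the genes that share the locus are detected in all 18 libraries.

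TNFRSF11B, or osteoprotegerin, a secreted decoy for RANKL and TRAIL (ENSG00000164761; chr8:118923557-118952200, minus strand), did not reach 1 TPM in any library. The LoVo EV libraries held 0.0477, 0.184 and 0.311 TPM, LoVo-labelled LIN28B 0.430, 0.573 and 0.279 TPM, and the same cells with alpelisib 0.273, 0.947 and 0.372 TPM. Among DLD-1 libraries, EV held 0.948, 0.601 and 0.478 TPM, LIN28B held 0.557, 0.191 and 0.463 TPM, and alpelisib-treated cells held 0.201, 0.352 and 0.0444 TPM. Each group overlapped the next in the order of means, and no test was made at this level.

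LoVo EV and DLD-1 EV differed in 6 of 7 members, where 55.5% of all genes were called, 17.3% higher in LoVo and 38.2% lower. LTB was 110-fold higher in LoVo EV (log2 6.43, adjusted p = 1.09e-13), TNFRSF12A 1.56-fold higher (0.64, adjusted p = 4.15e-05), and TNFRSF6B was detected in LoVo EV alone. TNFSF10 was lower in LoVo EV by 1.85 log2 units (mean TPM ratio 6.44, adjusted p = 9.55e-05), TNFSF15 3.84-fold (adjusted p = 2.05e-10), TNFRSF21 2.78-fold and TNFRSF1A 1.91-fold (adjusted p = 5.17e-08). The LIN28B effects under the 2 labels differed for 5 of 7 members, where 42.7% of all genes were called, 30.4% higher and 12.4% lower. For alpelisib, 0 of 7 differences between the labels were called by limma (0.847% of all genes). An unadjusted p under 0.05 was found for 3, namely TNFRSF1A, TNFRSF10A and TNFSF15. It was also found for 2132 of the 16803 genes that did not need 1 group to pass the filter. LIN28B with alpelisib against LoVo EV called 6 of 7 members, 3 higher and 3 lower, where 46.8% of all genes were called, 32.2% higher and 14.7% lower. It shares its control with the LIN28B contrast, and TNFRSF10A was the 1 member called in it and not for LIN28B against EV (log2 -0.83, adjusted p = 6.26e-05).

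The scaling of TPM bears on these directions. Median-of-ratios scaling shifted the median log2 difference of all genes by -0.28 for LIN28B against EV under the LoVo label and by 0.10 for alpelisib in DLD-1. It changed the split of all called genes from 7463 higher and 3067 lower to 4882 and 5083 in the first contrast, and from 1677 and 4067 to 2620 and 2886 in the second. Relative to that shift, LTB stood at -5.50, TNFRSF12A at -1.67, TNFRSF1A at 0.47, TNFSF15 at 0.30 and TNFSF10 at 0.96 under the LoVo label, all still called. TNFRSF21 turned from 0.11 to -0.24 with an adjusted p of 0.046. For alpelisib in DLD-1, LTB stood at -0.47, TNFRSF10A at -0.26 and TNFRSF1A at -0.10, and 0 of 7 members were called under that scaling (adjusted p = 0.0766, 0.127 and 0.264). In the LoVo-labelled cells, alpelisib still called TNFRSF10A (-0.78, adjusted p = 0.00013) and TNFSF15 (0.46, adjusted p = 0.000328), no longer TNFRSF12A (-0.15, adjusted p = 0.282), and added TNFRSF1A and TNFRSF21 at 0.20 and 0.25. LoVo EV against DLD-1 EV moved by 0.23 and kept its 6 calls in the same direction.

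Of the other superfamily ligands, 15 in all, 5 passed the filter outside LoVo EV too. LIN28B in DLD-1 called 0 of these 5 by limma (2 at an unadjusted p under 0.05, beside 2560 of the 16803 genes that did not need 1 group). That contrast called 2.53% of all genes, and under the LoVo label 40.3% were called higher and 16.5% lower. For the LoVo label, LIN28B against EV called 1 higher and 0 lower (median log2 -0.16, against 0.26 over all genes). Median-of-ratios scaling gave 1 higher and 2 lower, where all genes stood at 4882 higher and 5083 lower. EDA, the ligand ectodysplasin, rose from 0.780 ± 0.201 to 3.62 ± 1.26 TPM (log2 1.34, adjusted p = 1.3e-05). Alpelisib called 1 higher and 1 lower in DLD-1 (median -0.43, against -0.09 over all genes) and 1 higher and 2 lower under the LoVo label (median 0.23, against -0.06). The shares of all genes were 9.05% higher and 21.9% lower in DLD-1, and 15.1% and 24.6% under the LoVo label. TNFSF9, the ligand 4-1BBL, fell with alpelisib from 11.0 ± 0.722 to 3.94 ± 0.340 TPM in DLD-1 (log2 -1.28, adjusted p = 4.77e-05) and from 17.5 ± 1.68 to 6.30 ± 2.08 TPM under the LoVo label (-1.37, adjusted p = 9.59e-06). TNFSF13, or APRIL, rose from 24.9 ± 2.53 to 32.3 ± 3.53 TPM (0.36, adjusted p = 0.0193) and from 20.1 ± 2.42 to 30.6 ± 0.206 TPM (0.59, adjusted p = 0.000515). More than one gene claims the exons of TNFSF13, as 55.5% of its exonic bases belong also to the readthrough gene with TNFSF12.

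Of 23 other receptors, 15 passed the filter outside LoVo EV too. LIN28B against EV in DLD-1 called TNFRSF9 higher and TNFRSF14 lower, where 2.53% of all genes were called. TNFRSF9, the receptor 4-1BB, rose from 1.58 ± 0.979 to 5.66 ± 1.25 TPM (log2 1.43, adjusted p = 0.00895), and alpelisib brought it to 0.429 ± 0.372 TPM (-2.24, adjusted p = 2.33e-05). TNFRSF14, or HVEM, fell from 14.8 ± 1.81 to 7.14 ± 1.05 TPM with LIN28B (-0.96, adjusted p = 0.00157) and stood at 11.1 ± 1.12 TPM with alpelisib (0.58, adjusted p = 0.00493). These 2 contrasts share the LIN28B libraries. For LIN28B against EV within the LoVo label the count was 5 higher and 4 lower (median 0.16), and 3 higher and 7 lower under median-of-ratios scaling. Of all genes, 40.3% were called higher and 16.5% lower in that contrast at the deposited scale. TNFRSF18, or GITR, fell from 17.3 ± 1.33 to 0.910 ± 0.552 TPM (-3.30, adjusted p = 1.22e-08), and TNFRSF14 from 49.3 ± 1.42 to 8.91 ± 0.728 TPM (-2.35, adjusted p = 7.47e-10). TNFRSF10C fell there from 3.64 ± 1.74 to 0.314 ± 0.183 TPM (-1.77, adjusted p = 4.49e-05). Like LTB and TNFRSF6B, TNFRSF18 and CD40 were low or at 0 in DLD-1, at 0 and at most 0.334 TPM. CD40, not tested here, averaged 5.71 ± 1.22 TPM in LoVo EV against 0.0979 ± 0.0980 TPM for LoVo-labelled LIN28B.

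**Figure D4:**
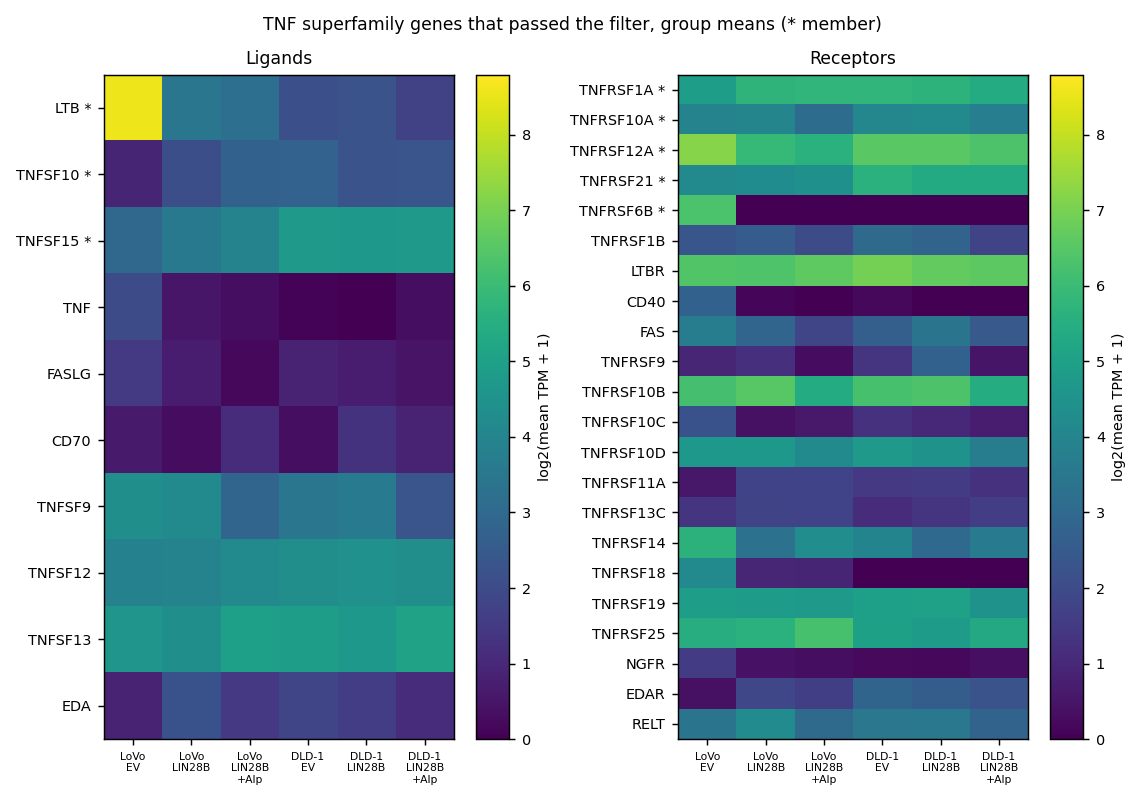
Group means as log2(mean TPM + 1) for the TNF superfamily ligands (left) and receptors (right) that passed the filter, members marked with an asterisk, with groups in columns. LTB, TNFRSF6B, TNF, CD40 and TNFRSF18 are brightest in LoVo EV, and LTBR and TNFRSF10B are high in every group.

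With alpelisib, the other receptors counted 1 higher and 7 lower in DLD-1 (median log2 -0.35, against -0.09 over all genes), and 3 higher and 6 lower under the LoVo label (median -0.15, against -0.06). All genes stood at 9.05% higher and 21.9% lower in DLD-1, and 15.1% and 24.6% under the LoVo label. FAS, the death receptor for FASLG, fell from 9.49 ± 1.97 to 4.51 ± 1.28 TPM in DLD-1 (log2 -0.94, adjusted p = 0.00308) and from 6.31 ± 1.34 to 2.56 ± 0.401 TPM under the LoVo label (-1.03, adjusted p = 0.00102). TNFRSF1B, the second TNF receptor, fell in DLD-1 from 5.96 ± 0.373 to 2.51 ± 0.126 TPM (-0.98, adjusted p = 0.000499). RELT, an orphan receptor, fell under the LoVo label from 18.1 ± 1.67 to 7.32 ± 0.975 TPM (-1.20, adjusted p = 1.51e-06). TNFRSF14 rose there with TNFRSF25 and LTBR, from 8.91 ± 0.728 to 19.0 ± 3.93 TPM (1.00, adjusted p = 3.93e-05). The receptor counts were the same in the LoVo-labelled cells under median-of-ratios scaling, at 3 higher and 6 lower, and in DLD-1, at 1 and 7.

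Genes that carry the signal were read in lists of their own. Of 30 adaptors and death signalling genes, alpelisib called 1 higher and 14 lower in DLD-1 (median log2 -0.36) and 2 higher and 16 lower under the LoVo label (median -0.32). Over all genes, it called 9.05% higher and 21.9% lower in DLD-1 (median -0.09), and 15.1% and 24.6% under the LoVo label (median -0.06). BIRC3, a ubiquitin ligase bound to TRAF2, fell from 18.2 ± 3.37 to 4.85 ± 1.74 TPM in DLD-1 (-1.74, adjusted p = 2.19e-05) and from 12.9 ± 1.18 to 4.71 ± 1.32 TPM under the LoVo label (-1.31, adjusted p = 0.000108). RBCK1, the HOIL-1 subunit of the linear ubiquitin ligase, fell from 425 ± 21.6 to 198 ± 5.96 TPM (-1.10, adjusted p = 1.54e-07) and from 584 ± 18.6 to 268 ± 27.4 TPM (-1.13, adjusted p = 5.09e-08). CASP10, an initiator caspase, fell under the LoVo label from 8.07 ± 1.55 to 4.03 ± 0.862 TPM (-0.85, adjusted p = 0.00107). LIN28B against EV called 0 of the 30 in DLD-1 by limma. An unadjusted p under 0.05 was found for 3, beside 2560 of the 16803 genes that did not need 1 group. Under the LoVo label it called 16 higher and 6 lower. Median-of-ratios scaling gave 11 and 9, where all genes stood at 4882 higher and 5083 lower. The shares of all genes called were 2.53% in DLD-1 and, under the LoVo label, 40.3% higher and 16.5% lower. RBCK1 rose there from 115 ± 4.26 to 584 ± 18.6 TPM (2.33, adjusted p = 1.5e-12).

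Of 12 NF-kappaB core genes, alpelisib called 1 higher and 6 lower in DLD-1 (median -0.33) and 0 higher and 7 lower under the LoVo label (median -0.42). Beside this, all genes stood at 9.05% higher and 21.9% lower in DLD-1 (median -0.09), and 15.1% and 24.6% under the LoVo label (median -0.06). REL, a NF-kappaB subunit, fell from 8.03 ± 1.38 to 4.31 ± 0.304 TPM in DLD-1 (-0.76, adjusted p = 0.0024) and from 8.89 ± 1.35 to 4.26 ± 0.658 TPM under the LoVo label (-0.91, adjusted p = 0.00035). NFKBIE, an inhibitor of NF-kappaB, fell from 31.8 ± 5.24 to 19.1 ± 1.64 TPM (-0.70, adjusted p = 0.00206) and from 22.9 ± 1.15 to 10.7 ± 1.80 TPM (-1.04, adjusted p = 4.82e-05). CHUK, the kinase IKK-alpha, fell from 13.7 ± 0.613 to 6.98 ± 0.432 TPM (-0.88, adjusted p = 0.0139) and from 13.1 ± 0.328 to 5.88 ± 2.04 TPM (-1.08, adjusted p = 0.0027). The genes that fell thus held a subunit, an activating kinase and an inhibitor of the pathway. LIN28B against EV called 0 of 12 in DLD-1 by limma. An unadjusted p under 0.05 was found for 1, beside 2560 of the 16803 genes that did not need 1 group. Under the LoVo label it called 6 higher and 1 lower. Median-of-ratios scaling turned that split to 3 higher and 6 lower, where all genes stood at 4882 higher and 5083 lower. At the deposited scale 2.53% of all genes were called in DLD-1, and 40.3% higher and 16.5% lower under the LoVo label.

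Of 22 matched NF-kappaB target genes, 17 were tested. Alpelisib called 1 higher and 7 lower in DLD-1 (median -0.40) and 2 higher and 7 lower under the LoVo label (median -0.46). For all genes the shares were 9.05% higher and 21.9% lower in DLD-1 (median -0.09), and 15.1% and 24.6% under the LoVo label (median -0.06). CXCL8, the chemokine interleukin-8, fell from 13.2 ± 3.55 to 4.63 ± 1.02 TPM in DLD-1 (-1.32, adjusted p = 0.000229) and from 23.1 ± 2.95 to 8.88 ± 1.76 TPM under the LoVo label (-1.30, adjusted p = 0.000118). TNFAIP3, the deubiquitinase A20, fell from 9.38 ± 1.21 to 4.98 ± 0.380 TPM (-0.79, adjusted p = 0.00117) and from 12.5 ± 1.03 to 5.48 ± 0.888 TPM (-1.06, adjusted p = 5.45e-05). LIF, a cytokine, fell under the LoVo label from 16.0 ± 3.08 to 4.55 ± 0.226 TPM (-1.60, adjusted p = 2.3e-07). LIN28B against EV called 1 of 17 in DLD-1, CSF2 (3.48 ± 1.32 to 1.09 ± 0.636 TPM, -1.10, adjusted p = 0.0401). Under the LoVo label it called 5 higher and 6 lower. Median-of-ratios scaling gave 4 and 10, where all genes stood at 4882 higher and 5083 lower. Of all genes, 2.53% were called in DLD-1, and 40.3% higher and 16.5% lower under the LoVo label. CCL2, a monocyte chemokine, fell there from 61.1 ± 6.79 to 0.477 ± 0.619 TPM (-5.47, adjusted p = 8.6e-11), and CXCL2, a neutrophil chemokine, rose from 2.51 ± 0.897 to 18.3 ± 1.62 TPM (2.48, adjusted p = 1.73e-07). The split between higher and lower in these alpelisib lists leaned the same way under median-of-ratios scaling, at 1 and 12 and 2 and 13 for the adaptors, 2 and 4 and 0 and 6 for the core, and 1 and 6 and 2 and 7 for the targets. All genes then stood at 2620 higher and 2886 lower in DLD-1, and 3588 and 3746 under the LoVo label.

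**Figure D5:**
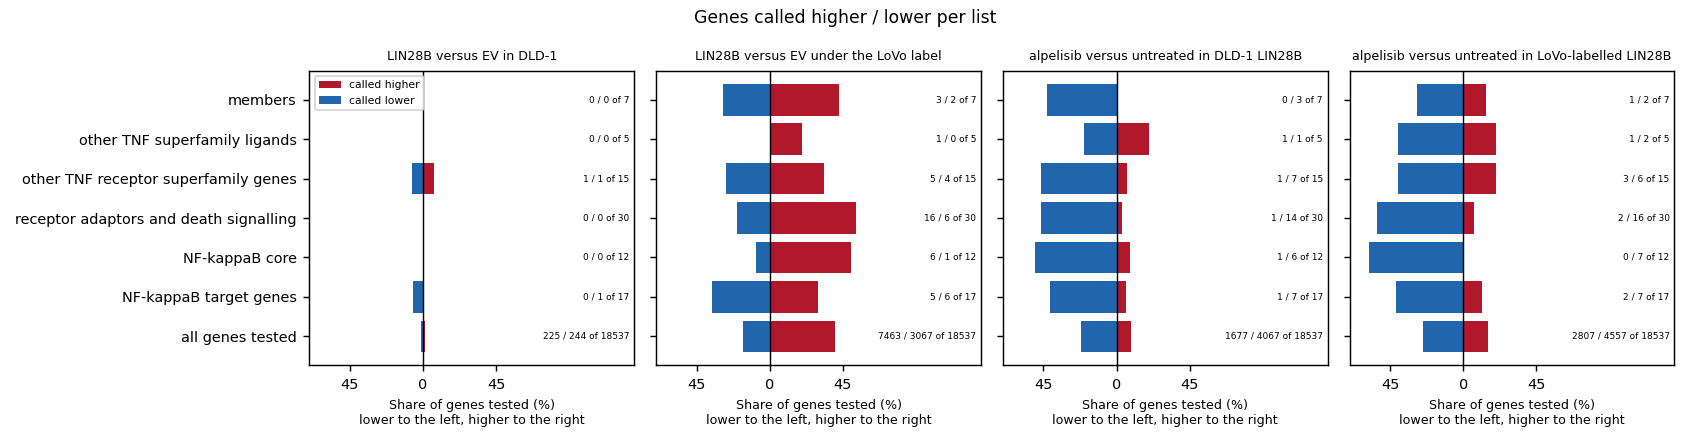
Share of tested genes called higher (red, right of 0) and lower (blue, left of 0) in each list and over all genes tested, for the 4 main comparisons, with the counts higher / lower of the number tested printed at the right. Lower calls outnumber higher ones with alpelisib for the other receptors, adaptors, NF-kappaB core and NF-kappaB targets under both labels. They do so over all genes too, at 1677 higher and 4067 lower in DLD-1 and 2807 and 4557 under the LoVo label. The members count 0 higher and 3 lower in DLD-1 and 1 and 2 under the LoVo label.

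Genes with a pattern like each member were sought over the 18 libraries by Pearson's r of log2(TPM + 1) among 12657 genes. The points share libraries and the 2 labels, so r describes group levels above all, and no p is given. TNFRSF6B was listed at 0 outside LoVo EV, so any gene confined to LoVo EV gives a high r with it, and its ranking adds nothing beyond that. Such genes were COL6A2 (r = 0.9988), a collagen VI chain at 13.5 TPM in LoVo EV and at most 0.126 TPM as a mean elsewhere, and GTSF1 (0.9972), at 67.5 and at most 0.192 TPM. LTB was closest to ADAM19 (0.9902), a metalloprotease with means of 15.1 TPM in LoVo EV but 1.23 TPM in LoVo-labelled LIN28B, and to CDKN2A (0.988), a cell cycle inhibitor at 26.9 and 3.12 TPM. TNFSF15 followed SLC1A1 (0.9928), a glutamate transporter at 10.7 TPM in LoVo EV but 33.1 TPM in DLD-1 EV, and NUDT4 (0.986). TNFRSF21 was closest to GABARAPL1 (0.9787), an autophagy gene, and NTN4 (0.9735), a netrin. For TNFRSF12A the closest were REEP6 (0.9674) and WNT10A (0.9615), a Wnt ligand at 26.0 TPM in LoVo EV but 4.16 TPM in LoVo-labelled LIN28B, and for TNFRSF1A they were B4GALT4 (0.9669), a galactosyltransferase, and ARFGEF3 (0.964). TNFRSF10A went with LRRC20 (0.9258) and with TBC1D4 (0.9191), a Rab GTPase-activating protein that AKT phosphorylates, which held 19.1 TPM in LoVo-labelled LIN28B and 7.94 TPM with alpelisib. TNFSF10 was closest to PLSCR4 (0.9008) and ARMCX5-GPRASP2 (0.8901), and TNFRSF11B, at its low level, to MARF1 (0.8256) and SP100 (0.8239).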

How the data were processed

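The deposited table held TPM for 18 libraries, which the authors computed per gene, per the file headers; of its 61806 Ensembl identifiers, 61757 had a symbol in the reference table. Per the submitters' processing notes, the build was hg38 and the tools included STAR 2.7.10, Picard, HTSeq and DESeq2, with no role or order given. The processing notes name no annotation, strand setting or gene lengths (not given in the sources used here). Because TPM fixes each library's total, abundant transcripts shift all other values; it keeps no depth, and no counting interval is given.

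Genes with at least 1 TPM in at least 3 libraries (18537) were tested with limma 3.58.1 (R 4.3.3) on log2(TPM + 1), all 6 groups in 1 fit (12 residual degrees of freedom, mean-variance trend). Two-sided p-values were adjusted over all genes tested by Benjamini-Hochberg, and calls were made below 0.05. A fold on the log2(TPM + 1) scale understates changes of low genes. Groups came from the labels, which do not state that replicates were separate cultures: p-values then reflect the spread among these samples alone, possibly technical spread. The script was tested on simulated data.

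The members and lists were chosen with earlier results of these data known. Besides all 9 members, the text draws named genes from up to 4 called genes per list and comparison with the largest log2 change and a mean of at least 2 TPM in 1 group, and, for each member, the 2 genes with the highest r. Some list genes that this rule names are not reported here. LTBR, LTA, TNFSF12, TNFRSF25 and TNFRSF10D were added as partners or neighbours after their values were seen, as were FAS, TNFRSF10B and TNFRSF14 where the rule did not name them. Of 23 NF-kappaB target symbols, 22 were matched. Gene positions are from GENCODE v29 on GRCh38, and promoter letters from RefSeq on GRCh38.p14. Alternatives changed the pseudocount, filter, scaling, trend, samples fitted and replicate block, and left out libraries.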

Additional observations from a re-analysis of the deposited data

Results flagged for a closer look

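The difference between the LIN28B effect under the LoVo label and in DLD-1 was called for 5 of 7 members by limma, on the log2(TPM + 1) scale. It was -5.27 for LTB (adjusted p = 2.75e-10), 1.74 for TNFSF10 (0.00468), 0.70 for TNFSF15 (0.000591), 0.95 for TNFRSF1A (4.07e-06) and -1.31 for TNFRSF12A (1.94e-06). These differences rest on libraries whose line could not be checked. Without LoVo EV replicates 1 and 2 together, the TNFSF10 difference was 1.39 (adjusted p = 0.0707).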

How the results depend on the processing

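Of 1918 values of the 7 members under the alternatives, 1845 kept their sign and side of the threshold. Another 32 that were not called either way changed sign (the largest to a size of 0.286), 29 lost a call, 11 gained one and 1 reversed with a call. Many alternatives could move only the adjusted p. They changed the filter, trend, replicate block or samples fitted, or left out a library outside the groups compared. The sign was fixed there by design, so the tally overstates what was put to the test. The reversal was TNFRSF21 for LIN28B against EV under the LoVo label, at -0.24 (adjusted p = 0.046) with median-of-ratios scaling. Members called for alpelisib in DLD-1 went from 3 to 0 under that scaling, by its shift of all genes, and ranged from 0 to 3 with 1 replicate left out. For LIN28B with alpelisib against EV in DLD-1, the count went from 1 to 2 with a pseudocount of 0.1 or 0.5 TPM and with a filter at 5 TPM, and lay between 1 and 2 with a replicate left out; the added gene was LTB (adjusted p = 0.0365 to 0.0484 where called). With a replicate left out, the LoVo-labelled counts stayed at 5 for LIN28B against EV and ranged from 2 to 3 for alpelisib and 6 to 7 for both against EV, stayed at 6 between the EV lines, and ranged from 5 to 6 for the difference of the LIN28B effects. TNFRSF12A under alpelisib in the LoVo-labelled cells was also lost with no filter (adjusted p = 0.0624), without mitochondrial genes (0.0728), without a trend (0.063) and with only the groups compared (0.0544). LTB under alpelisib in DLD-1 was lost with only the groups compared (0.053).

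Same-numbered libraries did not deviate together (r between -0.3021 and 0.1191 over 8 comparisons, and in none of them over 0.1 for every pair). With 3 libraries per group this cannot decide whether same-numbered libraries shared a culture, and the labels do not say what the numbers mark. With the replicate block, TNFRSF12A under alpelisib in the LoVo-labelled cells had an adjusted p of 0.0554, and the count of all genes called for LIN28B against EV in DLD-1 went from 469 to 314. Depth is unknown, which limits what can be said of TNFRSF11B, TNFSF10 and values listed at 0.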
